A study of Mus musculus with 4 samples.

Results

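Pparg, the gene of the fatty acid receptor PPARγ, was the only gene to pass the test among 8 tested of 9 nuclear receptor and cofactor genes. It was lower in macrophages kept with necrotic fat than in their control cultures. The share that passed was 12.5% of the 8 genes, beside 9.0% of all tested genes. The 9 genes were taken by symbol from the 17013 genes in the deposited CPM values (reads per gene scaled to a fixed library size). They are the PPAR genes Ppara, Ppard and Pparg, the LXR genes Nr1h3 (LXRα) and Nr1h2 (LXRβ), the RXR genes Rxra and Rxrb, the corepressor gene Ncor1 and the coactivator gene Ppargc1b (PGC-1β). The rule uses names alone, but the 9 genes were chosen with earlier results of these data known. All 9 are in the deposited values, and 8 of them reached 0.5 CPM in 2 or more libraries, the filter for testing, as did 12470 genes in all.

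PPARs and LXRs bind DNA as heterodimers with an RXR and change the transcription of their target genes when a lipid ligand is bound. PPARs respond to fatty acids and their derivatives, and LXRs to oxidised cholesterol and its precursors. In macrophages PPARs are known for control of lipid uptake, storage and oxidation, LXRs for control of cholesterol efflux and fatty acid synthesis, and both for restraint of inflammatory genes.

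Bone marrow-derived macrophages of wild-type mice were matured in M-CSF, seeded on porous inserts and cultured for 24 h. Every culture received aNBF, an artificial necrotic bone fluid extracted from freeze-thawed bone. Abdominal fat was also freeze-thawed and spun, and its middle layer served as fat control medium (Con) and the fatty top layer as high-fat-containing medium (Fat). Each medium was represented by 2 poly(A) RNA libraries, numbered as replicates in the labels and written here as Con 1, Con 2, Fat 1 and Fat 2. They held 33573852, 37881292, 37534565 and 40785872 reads on genes, in that order. The cells are primary cultures and the control medium also comes from fat tissue, so the comparison is between layers of the same preparation and not between fat and no fat. The study's methods name C57BL/6 male mice as the source of bone, bone marrow and fat, but Xist, a transcript of the inactive X chromosome of female cells, was at 304 to 428 CPM in all 4 libraries and the Y-linked gene Ddx3y had 0 to 2 reads. The labels do not say whether replicates were separate cultures or animals, so p-values reflect no spread beyond that between these libraries. In limma, the main test, most of the weight for each gene's spread came from the other genes (5.42 prior against 2 residual degrees of freedom).

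All 8 macrophage markers examined were detected in every library, among them Csf1r at 1477 to 1852 CPM. Their summed level was 33920 to 35962 CPM in Con and 26918 to 28504 CPM in Fat. Lyz2 held most of it and was not called (adjusted p 0.209 in limma). Mertk and Fcgr1 were called lower in Fat and no marker was called higher. Cd68 (mean 823.9 CPM in Con, 878.2 in Fat) and Itgam (2667 and 2793 CPM) had higher means in Fat, with overlapping groups. The means of the remaining markers were lower in Fat. Of 10 adipocyte genes, Adipoq, Cidea, Lep and Adrb3 had 0 reads in both Con libraries. The 9 adipocyte genes other than Fabp4 held 6 reads together in Con 1 and 7 in Con 2. They held 422 in Fat 1 and 245 in Fat 2, which is 11.3 and 5.98 CPM. Of these, Car3 held 269 in Fat 1 and 139 in Fat 2. Of 3 adipocyte genes tested, limma called 2 higher, Car3 and Cidec, beside 3.99% of all tested genes. Their log2 fold changes were 5.30 (adjusted p 0.00159) and 3.63 (adjusted p 0.0044), from 0 to 2 reads in each Con library. In bulk RNA, fewer cells of a type and less RNA per cell cannot be told apart, and the part of the macrophage marker levels and of adipocyte RNA in the results that follow was not tested.

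The level of Pparg fell by 37.9% in Fat. Pparg encodes the PPAR that drives fat cell formation and is induced as monocytes become macrophages. Its CPM was 32.8 and 37.7 in Con 1 and Con 2 and 22.9 and 20.9 in Fat 1 and Fat 2. Both Fat libraries lay below both Con libraries, with no overlap. The means were 35.3 ± 3.43 CPM in Con and 21.9 ± 1.40 CPM in Fat (SD, n = 2 each), from 1114 and 1414 reads in Con and 855 and 858 in Fat. The log2 fold change was -0.68 (SE 0.09, 95% interval -0.89 to -0.47) with an adjusted p of 0.00639 in limma over the 12470 genes. On a linear scale the interval was 0.540 to 0.720 of the Con level. Of all tested genes, 4.07% had a larger change in either direction on the log2 scale, and Pparg was number 84 by p-value among the genes with a lower mean in Fat. The call was lost without the mean-variance trend in limma (adjusted p 0.0841) and held in the other 12 of 13 alternatives. An exact two-sided permutation test of 2 against 2 libraries cannot give a p below 0.333, so no single-gene permutation test could pass 0.05.

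Of the 8 genes tested, 0 were called higher and 1 was called lower, beside 3.99% and 5.0% of all tested genes (9.0% in either direction). At an unadjusted limma p under 0.05 there was 1 higher gene, Ppard, and 1 lower gene, Pparg, beside 1467 higher and 1541 lower of all 12470 tested genes. edgeR and DESeq2, run on the reads recovered from the CPM values, each gave 0 higher and 1 lower gene at an adjusted p under 0.05. In 4 of the 8 genes the groups did not overlap, 2 with Fat above and 2 with Fat below, beside 55.6% of all tested genes (29.4% above and 26.2% below). The median log2 fold change was 0.05 over the 8 genes and 0.01 over all tested genes.

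**Figure D1:**
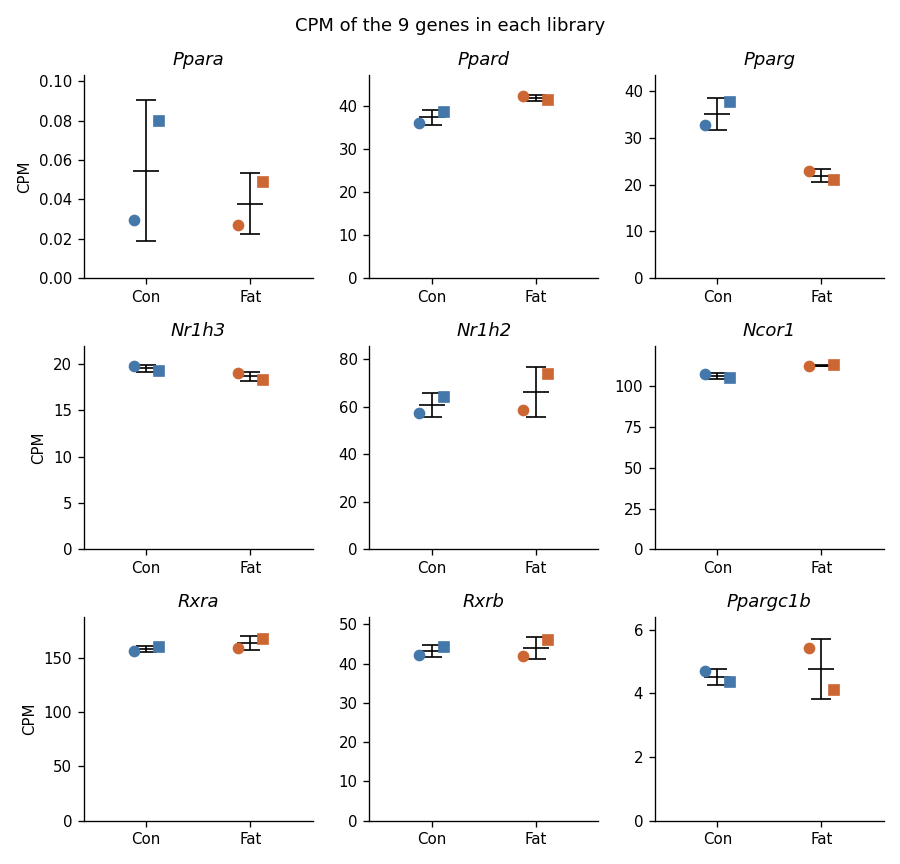
CPM (y axis, linear, from 0, a separate range per panel) of the 9 genes in each library, with circles for replicate 1, squares for replicate 2, and bars for the mean ± SD of the 2 libraries of a group. Pparg is lower in both Fat libraries (22.9 and 20.9 CPM) than in both Con libraries (32.8 and 37.7 CPM), while Ppara stays at 1 to 3 reads in every library.

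RefSeq lists 3 transcription starts for Pparg, whose isoforms are known to begin at separate promoters, and the deposited values count the gene as a whole, so the fall cannot be assigned to a start. The 250 bases before each start are shown because the gene's own promoters bear on that limit, 5′ to 3′ on the plus strand of RefSeq GRCm38.p6, with the core receptor element AGGTCA in capitals where it occurs on either strand. They lie at chr6:115360894-115361143, chr6:115362099-115362348 and chr6:115421816-115422065. The labels name GRCm39 for the deposited values, so these positions are those of the reference only.
Pparg start A: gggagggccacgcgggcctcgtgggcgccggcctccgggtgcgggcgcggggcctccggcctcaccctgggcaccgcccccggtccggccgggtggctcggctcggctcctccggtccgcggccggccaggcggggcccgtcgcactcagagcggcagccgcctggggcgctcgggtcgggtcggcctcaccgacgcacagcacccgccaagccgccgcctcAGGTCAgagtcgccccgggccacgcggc
Pparg start B: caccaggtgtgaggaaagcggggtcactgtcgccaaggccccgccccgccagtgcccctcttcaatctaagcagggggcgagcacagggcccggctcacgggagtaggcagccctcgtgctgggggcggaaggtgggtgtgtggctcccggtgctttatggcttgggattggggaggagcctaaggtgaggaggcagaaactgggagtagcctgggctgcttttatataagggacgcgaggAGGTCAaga
Pparg start C: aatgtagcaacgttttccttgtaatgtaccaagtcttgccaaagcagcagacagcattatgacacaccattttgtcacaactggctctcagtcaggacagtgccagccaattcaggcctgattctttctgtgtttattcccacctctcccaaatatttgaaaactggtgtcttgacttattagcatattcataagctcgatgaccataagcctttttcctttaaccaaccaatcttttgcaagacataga
The element lies 28 to 23 bases before start A and 9 to 4 bases before start B, and the letters are not in the window of start C. Of 32851 such windows of 27025 genes, 14.0% hold AGGTCA on either strand. The other members matched are Ppara, Ppard, Nr1h2, Nr1h3, Rxra, Rxrb and Ncor1, so that 8 of the 9 genes have 14 windows, and 3 of the 14 hold the element. The remaining one of these 3 is a start of Rxra at chr2:27709042-27709291, with copies 87 to 82 and 48 to 43 bases before it. A match is a description of letters and not a bound site.

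Ppard encodes PPARδ, the widely expressed PPAR that responds to fatty acids released from lipoproteins. Its CPM was 36.1 and 38.6 in Con 1 and Con 2 and 42.4 and 41.3 in Fat 1 and Fat 2. The Fat libraries were both above the Con libraries, but the difference did not pass the test (log2 fold change 0.16, SE 0.06, 95% interval 0.01 to 0.31, unadjusted p 0.0374, adjusted p 0.175 in limma). It was called in 0 of 13 alternatives, where its log2 fold change ran from 0.11 to 0.21. Ppara encodes PPARα, the main PPAR of fatty acid oxidation in liver. Ppara had 1 and 3 reads in Con and 1 and 2 in Fat, which is 0.0268 to 0.0800 CPM and at or under the 3 reads taken as the limit of detection. It was therefore not detected at this depth in either medium and no fold change is given. That limit covers counting error only, since the reads carry no molecular identifiers.

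Levels of different genes were compared in the deposited TPM (a level that is also scaled for gene length). In Con, Pparg stood at 38.5 ± 3.21 TPM and Ppard at 25.2 ± 0.832 TPM (SD, n = 2). In Fat the order was turned, with Ppard at 28.8 ± 0.548 TPM and Pparg at 24.5 ± 1.58 TPM, and the libraries of the 2 genes did not overlap in either medium. The ratio of Pparg to Ppard in TPM was 1.47 and 1.58 in Con 1 and Con 2 and 0.877 and 0.822 in Fat 1 and Fat 2. Pparg made up 59.6% and 61.3% of the TPM of the 3 PPAR genes in Con and 46.7% and 45.1% in Fat. The summed PPAR level was 60.8 and 66.5 TPM in Con and 54.8 and 51.8 TPM in Fat, also without overlap. These shares were not tested.

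**Figure D2:**
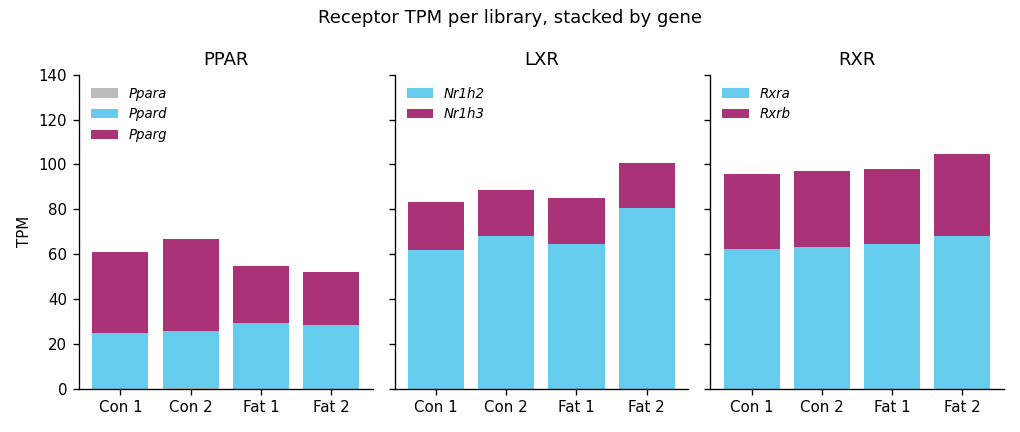
TPM per library (y axis, linear, from 0) stacked by gene for the PPAR, LXR and RXR genes, with 1 bar for each of the 4 libraries. The Pparg segment is the smaller of the PPAR segments in both Fat libraries (46.7% and 45.1% of the bar) and the larger in both Con libraries, Ppara is too low to be seen, and Rxra holds 64.7% to 65.8% of the RXR bar in every library.

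The RXR genes encode the common partners of PPARs and LXRs. Rxra was at 156.0 and 160.4 CPM in Con 1 and Con 2 and 158.8 and 167.9 CPM in Fat 1 and Fat 2. The groups overlapped, and the log2 fold change of 0.05 (SE 0.06, 95% interval -0.08 to 0.18) did not pass the test (adjusted p 0.668 in limma). In TPM the Fat libraries lay above those of Con. Rxrb was at 42.1 and 44.2 CPM in Con and 41.9 and 46.0 CPM in Fat. Its groups overlapped too, with a log2 fold change of 0.02 (SE 0.07, 95% interval -0.14 to 0.19, adjusted p 0.882 in limma). Rxrg, the remaining RXR gene, had at most 1 read in a library.

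Rxra was the more abundant RXR, at 62.7 ± 0.372 TPM in Con and 66.2 ± 2.57 TPM in Fat (SD, n = 2). The ratio of Rxra to Rxrb in TPM was 1.88 and 1.84 in Con and 1.92 and 1.85 in Fat. The ratio of Rxra to Pparg in TPM was 1.72 and 1.54 in Con 1 and Con 2 and 2.52 and 2.91 in Fat 1 and Fat 2. Both libraries of Fat thus held more Rxra transcript per Pparg transcript than either library of Con.

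The LXR genes did not pass the test. Nr1h3 encodes LXRα, which is enriched in macrophages and liver. Its CPM was 19.8 and 19.3 in Con 1 and Con 2 and 19.0 and 18.3 in Fat 1 and Fat 2. The Fat libraries lay below the Con libraries in CPM but overlapped them in TPM, and the log2 fold change was -0.06 (SE 0.07, 95% interval -0.24 to 0.11, adjusted p 0.649 in limma). Nr1h2 encodes LXRβ, which most tissues express. It was at 57.3 and 64.3 CPM in Con and 58.7 and 73.7 CPM in Fat. Its groups overlapped, Fat 2 was the highest library, and the log2 fold change of 0.12 (SE 0.11, 95% interval -0.14 to 0.37, adjusted p 0.574 in limma) turned to -0.049 without that library.

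Nr1h2 had the highest mean TPM of the 9 genes in both media, at 65.1 ± 4.45 in Con and 72.5 ± 11.6 in Fat (SD, n = 2), where its libraries overlapped those of Rxra. Nr1h3 was at 20.8 ± 0.650 TPM in Con and 20.3 ± 0.573 TPM in Fat. It made up 25.5% and 22.9% of the LXR transcripts in Con and 24.3% and 19.8% in Fat, with overlapping groups. The summed LXR level was 83.2 and 88.6 TPM in Con and 85.0 and 100.6 TPM in Fat.

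Ncor1 encodes a corepressor that holds histone deacetylase on receptors without an activating ligand. Its CPM was 107.5 and 105.1 in Con 1 and Con 2 and 112.4 and 112.8 in Fat 1 and Fat 2. The Fat libraries lay above the Con libraries, with a log2 fold change of 0.08 (SE 0.05, 95% interval -0.04 to 0.20, adjusted p 0.382 in limma). Of its 75-base stretches 2.30% were also found in transcripts of other genes, against at most 0.0954% for any other member. Ppargc1b encodes PGC-1β, a coactivator of mitochondrial and lipid genes. It was at 4.69 and 4.34 CPM in Con and 5.44 and 4.10 CPM in Fat. Fat 1 was the highest and Fat 2 the lowest library, the log2 fold change was 0.06 (SE 0.16, 95% interval -0.31 to 0.44, adjusted p 0.856 in limma), and it was -0.14 without Fat 1.

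Ncor1 stood at 20.7 ± 0.607 TPM in Con and 22.4 ± 0.0490 TPM in Fat, and Ppargc1b at 2.68 ± 0.181 and 2.89 ± 0.576 TPM (SD, n = 2). In Con the order of mean TPM was Nr1h2, Rxra, Pparg, Rxrb, Ppard, Nr1h3, Ncor1, Ppargc1b and Ppara. Neighbours whose libraries overlapped in Con were Nr1h2 with Rxra and Nr1h3 with Ncor1. In Fat the only such neighbours were Nr1h2 and Rxra, Pparg stood behind Rxrb and Ppard, and Ncor1 stood ahead of Nr1h3 without overlap. The ratio of Pparg to Ncor1 in TPM was 1.72 and 2.01 in Con 1 and Con 2 and 1.15 and 1.04 in Fat 1 and Fat 2.

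**Figure D3:**
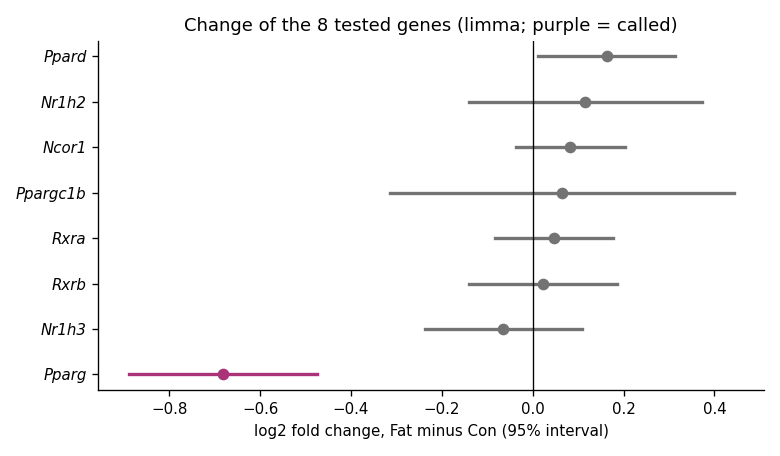
Log2 fold change of CPM, Fat minus Con (x axis), with its 95% interval from limma for the 8 tested genes, the called gene in purple. The interval of Pparg (-0.89 to -0.47) lies wholly below 0, that of Ppard (0.01 to 0.31) begins just above 0 without a call after adjustment, and the other 6 intervals include 0.

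The called PPAR targets all lay above 0 and the called LXR targets mostly below it. Of 30 genes listed by hand as PPAR targets, 29 were in the deposited values and 27 were tested. Among the tested genes 13 were called higher and 0 lower by limma, beside 3.99% and 5.0% of all tested genes, and their median log2 fold change was 0.36 against 0.01 over all. At an unadjusted p under 0.05 there were 19 higher and 1 lower, beside 1467 higher and 1541 lower of all 12470 tested genes. edgeR called 13 higher and 0 lower and DESeq2 14 and 0. The 4 with the largest change were Pdk4, Angptl4, Hilpda and Ucp3. This list is of known targets of any PPAR, so a change in it does not name the receptor. Like the LXR list below, it was written with earlier results of these data known. Its calls beside those of all genes are therefore a description and not independent evidence.

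Pdk4 encodes the kinase that turns off pyruvate dehydrogenase when fat is burned. Its CPM was 1.39 and 1.92 in Con 1 and Con 2 and 13.5 and 14.8 in Fat 1 and Fat 2, a log2 fold change of 3.04 (SE 0.17, adjusted p 5.41e-04 in limma). Angptl4, an inhibitor of lipoprotein lipase, was at 25.7 and 25.6 CPM in Con and 133.3 and 140.2 CPM in Fat (log2 fold change 2.41, SE 0.06, adjusted p 5.43e-06). Hilpda, an inhibitor of triglyceride breakdown on lipid droplets, was at 32.7 and 37.4 CPM in Con and 177.9 and 174.4 CPM in Fat (log2 fold change 2.33, SE 0.07, adjusted p 2.00e-05). Ucp3, a mitochondrial carrier of muscle, rose from 0.560 and 0.453 CPM to 1.63 and 2.44 CPM and among the Con libraries reached the filter only in Con 1 (log2 fold change 1.80, SE 0.27, adjusted p 0.0104). In each of these 4 genes both Fat libraries were above both Con libraries.

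The remaining called PPAR targets were the lipid droplet coat gene Plin2, the uncoupling protein gene Ucp2, the thioesterase gene Acot1, and the fatty acid transport and oxidation genes Cpt1a, Slc25a20, Acaa2, Hadha, Acadl and Acadvl, all higher in Fat. Fabp4, a fatty acid carrier that is a known PPARγ target in macrophages, was at 189.2 and 208.4 CPM in Con and 180.0 and 175.5 CPM in Fat and did not pass the test (log2 fold change -0.16, adjusted p 0.174 in limma). Cd36, the scavenger receptor gene that PPARγ also induces, was at 9199 and 10370 CPM in Con and 12638 and 12398 CPM in Fat (log2 fold change 0.36, adjusted p 0.163 in limma), and DESeq2 called it higher. Fabp4 and Cd36 were chosen after their values were seen. Without the mean-variance trend 4 of the 13 calls were made, those of Angptl4, Plin2, Pdk4 and Hilpda. The adipocyte genes given above, 6 and 7 reads in Con and 422 and 245 in Fat, moved with this list, and their part in it was not tested.

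**Figure D4:**
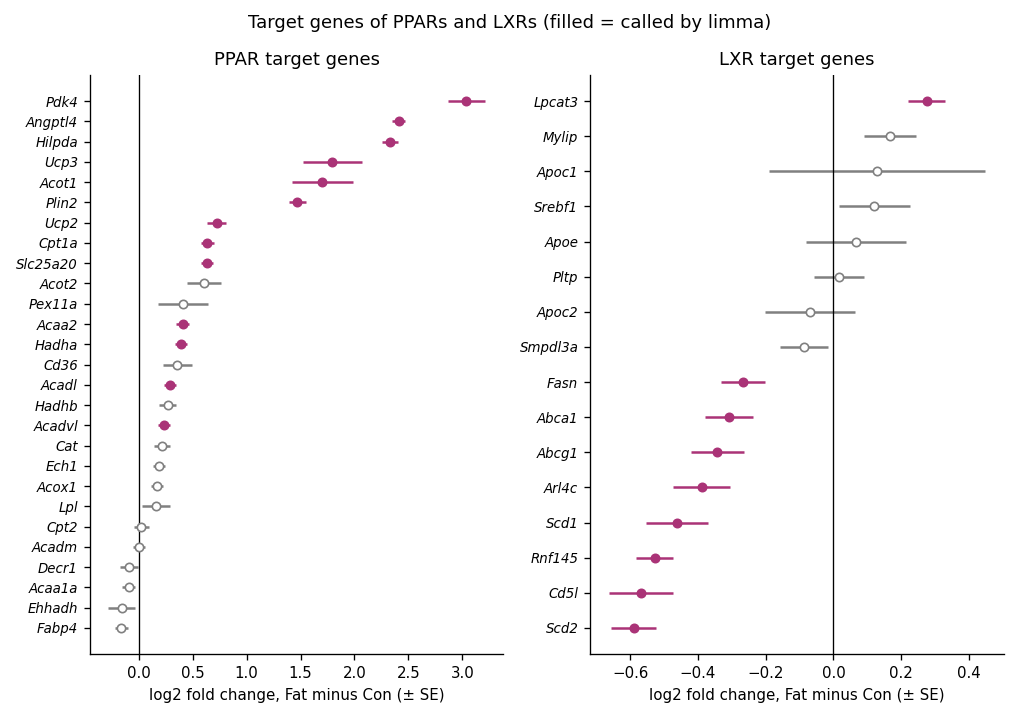
Log2 fold change of CPM, Fat minus Con (x axis, with SE), for the 27 tested PPAR targets and the 16 tested LXR targets, filled where limma called the gene, with a separate x range in each panel. In the PPAR panel 13 genes are filled and all lie above 0, and in the LXR panel 8 filled genes lie below 0 and 1, Lpcat3, above it.

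Of 20 genes listed as LXR targets, 18 were in the deposited values and 16 were tested, of which limma called 1 higher and 8 lower, beside 3.99% and 5.0% of all tested genes. Their median log2 fold change was -0.18 against 0.01 over all. edgeR and DESeq2 each called 1 higher and 8 lower, as did limma with median ratios, a pseudocount of 1 CPM or a replicate block. At an unadjusted limma p under 0.05 there were 1 higher and 8 lower, beside 1467 higher and 1541 lower of all 12470 tested genes. The called set was smaller under some other settings. With TPM values 4 of the 16 were called (1 higher, 3 lower), without the mean-variance trend 0, and 4 without Con 1, 6 without Con 2, 5 without Fat 1 and 4 without Fat 2. Scd2, Cd5l and Rnf145 were called in each of these but the fit without the trend.

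Rnf145, an LXR-induced ubiquitin ligase gene of cholesterol control, was at 111.9 and 108.8 CPM in Con and 75.1 and 78.0 CPM in Fat (log2 fold change -0.53, SE 0.05, adjusted p 0.00355 in limma). Scd2, a fatty acid desaturase gene, was at 202.9 and 216.7 CPM in Con and 133.2 and 145.6 CPM in Fat (log2 fold change -0.59, SE 0.07, adjusted p 0.0044). Cd5l, a secreted macrophage survival factor, was at 55.1 and 65.0 CPM in Con and 38.0 and 42.8 CPM in Fat (log2 fold change -0.57, SE 0.09, adjusted p 0.0144). The Fat libraries of all 3 genes lay below those of Con. The related desaturase gene Scd1 had a log2 fold change of -0.46 (SE 0.09, adjusted p 0.0244). Lpcat3, a phospholipid remodelling enzyme gene, was at 50.5 and 51.7 CPM in Con and 62.2 and 61.5 CPM in Fat and went the other way (log2 fold change 0.27, SE 0.06, adjusted p 0.0255).

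The promoters of the LXR targets Abca1 and Fasn share a stretch of letters and are shown because both genes were called lower. These genes were chosen after their values were seen. Each window is the 250 bases before the gene's single RefSeq start, 5′ to 3′ on the minus strand of GRCm38.p6, at chr4:53159896-53160145 for Abca1 and chr11:120824548-120824797 for Fasn. The capitals mark the longest stretch that is identical in both windows on the gene's strand.
Abca1: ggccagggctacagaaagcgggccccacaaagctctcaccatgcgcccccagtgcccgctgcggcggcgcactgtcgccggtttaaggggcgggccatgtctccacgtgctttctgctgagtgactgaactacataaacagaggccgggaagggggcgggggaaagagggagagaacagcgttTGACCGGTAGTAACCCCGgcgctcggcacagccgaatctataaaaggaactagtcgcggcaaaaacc
Fasn: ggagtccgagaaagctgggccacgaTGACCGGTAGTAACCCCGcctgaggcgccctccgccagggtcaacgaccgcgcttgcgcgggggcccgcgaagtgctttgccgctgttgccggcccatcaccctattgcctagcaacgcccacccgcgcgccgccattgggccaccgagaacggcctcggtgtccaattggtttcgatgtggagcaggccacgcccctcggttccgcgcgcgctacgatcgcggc
The stretch TGACCGGTAGTAACCCCG has 18 bases and lies 67 to 50 bases before the start of Abca1 and 225 to 208 before that of Fasn. Only these 2 of the 32851 windows hold it on either strand (0.00609%), and that these 2 do follows from how it was found. Only exact copies were counted. A window of the LXR target Srebf1, at chr11:60210472-60210721, holds the similar letters tgaccgccagtaacccca, and Srebf1, given below, was not called. Whether the stretch bears on the level of any of these genes was not tested. Abca1 encodes the cholesterol efflux pump and was at 439.2 and 388.7 CPM in Con and 328.5 and 338.7 CPM in Fat (log2 fold change -0.31, SE 0.07, adjusted p 0.0385 in limma). Fasn encodes fatty acid synthase and was at 73.3 and 77.0 CPM in Con and 59.7 and 65.1 CPM in Fat (log2 fold change -0.27, SE 0.06, adjusted p 0.0456). Srebf1 encodes the lipogenic factor SREBP-1 and was at 50.2 and 58.2 CPM in Con and 53.5 and 64.4 CPM in Fat, with overlapping groups and no call (log2 fold change 0.12, SE 0.10, adjusted p 0.537). With TPM values, without the filter, without the mean-variance trend, without Con 1, without Fat 1 and without Fat 2, neither Abca1 nor Fasn was called.

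The exact repeats AGGTCANAGGTCA (a PPAR-type repeat with a spacer of a single base) and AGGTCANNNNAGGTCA (an LXR-type repeat) were in 11 and 5 of all windows, 0.0335% and 0.0152%. They were in none of the windows of the members or of the listed PPAR and LXR targets that matched. Repeats that differ from these letters were not sought, so this does not show that the windows, those of Abca1 and Fasn included, lack a receptor element. AGGTCA itself, which those repeats contain, was in a window of 7 of the 22 matched PPAR targets and 1 of the 15 matched LXR targets. Over all genes it was in a window of 4260 of 27025.

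Among 19 further coregulators, all tested, limma called 0 higher and 1 lower, with a median log2 fold change of 0.00, beside 3.99% and 5.0% of all tested genes. The called gene was Ncoa4, a receptor coactivator that also carries ferritin to lysosomes, at 43.3 and 44.6 CPM in Con and 36.0 and 30.3 CPM in Fat (log2 fold change -0.41, SE 0.09, adjusted p 0.031). This call was lost with TPM values, without the trend, and without Con 1, Con 2 or Fat 2, with adjusted p-values of up to 0.149. At an unadjusted p under 0.05 the list held 3 higher and 2 lower genes, beside 1467 and 1541 of all 12470 tested genes. edgeR and DESeq2 each called 0 higher and 1 lower.

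Of 8 genes of the PGC-1 family and its partners beside Ppargc1b, 5 were tested and limma called 0, beside 9.0% of all tested genes in either direction, with a median log2 fold change of 0.07. At an unadjusted p under 0.05 there was 1 higher gene and 0 lower, beside 1467 and 1541 of all 12470 tested genes. edgeR and DESeq2 called 0. The smallest adjusted p-values were those of the PGC-1-related coactivator gene Pprc1 (log2 fold change 0.16, adjusted p 0.191) and of the estrogen-related receptor gene Esrra (0.20, adjusted p 0.236). Ppargc1a, the gene of PGC-1α, had at most 3 reads in a library, so that Ppargc1b was the family member of that pair seen at this depth.

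Of 17 genes of ligand supply, which make or release receptor ligands, 12 were tested. limma called 2 higher and 3 lower, beside 3.99% and 5.0% of all tested genes, and edgeR and DESeq2 each called as many. The median log2 fold change was -0.11. Pnpla2, the first lipase of triglyceride breakdown, rose from 130.0 and 139.7 CPM in Con to 183.5 and 192.3 CPM in Fat (log2 fold change 0.48, SE 0.06, adjusted p 0.00561 in limma). Ptgs2, the inducible cyclooxygenase gene, rose from 33.8 and 25.7 CPM to 44.3 and 47.4 CPM (log2 fold change 0.64, SE 0.12, adjusted p 0.0216), and the constitutive Ptgs1 fell from 53.5 and 46.6 CPM to 33.8 and 34.7 CPM (log2 fold change -0.54, SE 0.08, adjusted p 0.0085). Fabp5, a carrier that delivers fatty acids to PPARδ, fell from 1350 and 1419 CPM to 1066 and 1045 CPM (log2 fold change -0.39, SE 0.07, adjusted p 0.0165). Only the calls of Pnpla2 and Ptgs1 were made without Fat 2, and 0 of the 5 without a mean-variance trend.

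**Figure D5:**
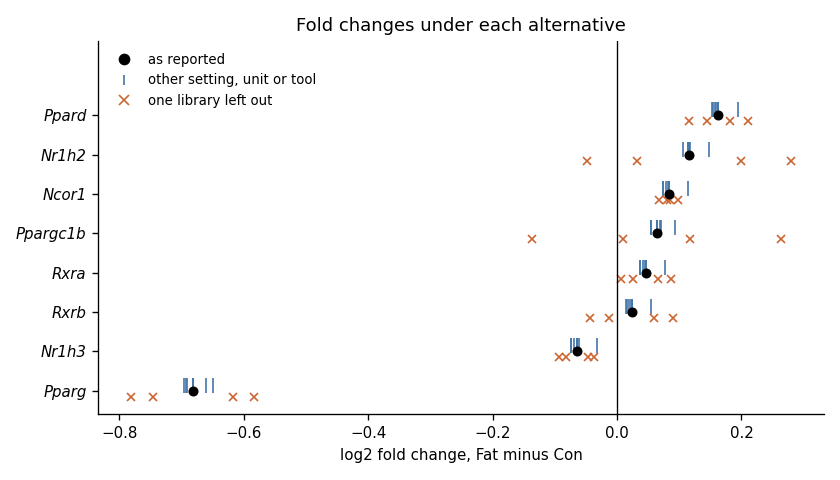
Log2 fold change, Fat minus Con (x axis), of the 8 tested genes as reported (black points), under another setting, unit or tool (blue ticks) and with a library left out (orange crosses). Pparg stays between -0.78 and -0.58, while crosses of Nr1h2, Rxrb and Ppargc1b fall on both sides of 0.

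The genes most like Pparg and Nr1h3 across the 4 libraries were taken among 9759 tested genes whose mean reached 5 CPM, by the root mean square difference of their centred log2 CPM. For Pparg they were the proteasome subunit gene Psmb10 (0.0444 on the log2 scale), the kinesin gene Kifc1 (0.0497) and the ketone body enzyme gene Oxct1 (0.0521). Psmb10 was at 164.2 and 173.2 CPM in Con and 110.2 and 98.6 CPM in Fat, and its log2 fold change in limma was -0.69 (adjusted p 0.00347) beside -0.68 for Pparg. For Nr1h3 they were Ift172 (0.0025), Asnsd1 (0.0028) and Eogt (0.0031). All 3 had log2 fold changes of -0.07 to -0.06, and limma called none of them. Over 4 libraries many genes share a pattern, and likeness here is a description only.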

How the data were processed

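Bulk RNA-seq was analysed for 2 Con and 2 Fat libraries, assigned by their titles. Libraries were single reads of 75 bases from a stranded poly(A) kit. The authors deposited CPM, reads per gene scaled by library size. The TPM that the authors deposited is scaled for gene length as well. The labels name the GRCm39 build, and the aligner and annotation are not given in the sources used here. The study used edgeR for Fat against Con. Its supplementary tables, which hold fold changes and p-values, were not used.

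Dividing the CPM by the smallest step of each library gave whole reads (100% of values within 0.01 read), and these reads were used where counts are named. A read was worth 0.0244 to 0.0295 CPM. The main test was that of limma 3.58.1 (R 4.3.3). It took log2(CPM + 0.1), a mean-variance trend and no covariates, two-sided, with Benjamini-Hochberg adjustment over the 12470 genes at or above 0.5 CPM in at least 2 libraries, called at an adjusted p under 0.05 (1122 genes, 498 higher and 624 lower). Fold changes are on this log2(value + pseudocount) scale, which understates changes of low genes.

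Other settings tried were TPM values, a pseudocount of 1 CPM, a filter on a mean of 5 CPM or none, scaling by median ratios, no mean-variance trend, the replicate number as a block, each library left out, and, on recovered reads, edgeR 4.0.16 (quasi-likelihood) and DESeq2 1.42.0.

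The 9 genes, the 7 pathway lists and the markers were chosen with earlier results of these data known, and the lists were written by hand. Named beside the 9 genes are, for each list, the 4 called genes with the largest change and the 2 largest called in the direction fewer took, or, with none called, the 2 with the smallest adjusted p, the 3 genes most like Pparg and most like Nr1h3, and the markers. Genes named outside this rule are the remaining called or listed genes given by name and Xist and Ddx3y. Some listed genes are counted but not reported here by name. Adgre1 was matched through its synonym Emr1. Promoters came from RefSeq GRCm38.p6, without transcribed bases. Ppargc1b was not matched there. Shared sequence was sought by aligning stretches of 75 bases of GENCODE vM21 transcripts with BWA 0.7.19, allowing 2 mismatches. Python 3.11.15 was used for tables and figures, with numpy 2.4.6, pandas 2.3.3 and matplotlib 3.10.9.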

Additional observations from a re-analysis of the deposited data

How the results depend on the processing

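Over 13 alternatives the log2 fold change of Pparg ran from -0.78 to -0.58 and was called in 12. Without the mean-variance trend 31 genes were called in all in place of 1122 (19 higher, 12 lower), 0 of the 9 receptor and cofactor genes, 4 PPAR targets in place of 13 and 0 LXR targets in place of 9, while their fold changes were the same by construction. With TPM values 791 genes were called (425 higher, 366 lower) and 4 LXR targets. With a library left out, which assumes that the lone library varies like the others, calls ran from 529 (without Fat 2) to 1131 over all genes, with 666 without Con 1, and from 4 to 6 for the LXR targets. Directions that turned did so only there, where the log2 fold change ran from -0.049 to 0.28 for Nr1h2, from -0.044 to 0.090 for Rxrb and from -0.14 to 0.26 for Ppargc1b. A block for the replicate number gave 2520 called genes, 18 PPAR targets and 9 LXR targets, and Pparg was the only receptor or cofactor gene called. The deviations of libraries with the same number correlated at 0.20 over the tested genes, but with 2 pairs they share only a number. The scaling that moved the median of all genes most was TPM, by 0.032 on the log2 scale. Among the 9 genes depth left only Ppara undetected. Ppargc1b, at 159 to 203 reads, was also low and was left out by the filter on a mean of 5 CPM.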

Other observations

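Of 21 genes of other RXR partners and retinoid handling, 12 were tested. limma called 2 higher and 1 lower in Fat, beside 3.99% and 5.0% of all tested genes, edgeR 2 and 1, and DESeq2 2 and 2. Cyp26b1, a retinoic acid-degrading enzyme gene, rose from 1.24 and 1.65 CPM in Con 1 and Con 2 to 3.56 and 4.32 CPM in Fat 1 and Fat 2 (log2 fold change 1.39, SE 0.20, adjusted p 0.00852). Dhrs3, which reduces retinal to retinol, rose from 286.2 and 315.0 CPM to 360.2 and 376.3 CPM (log2 fold change 0.29, SE 0.07, adjusted p 0.0351). Vdr, the vitamin D receptor gene and another RXR partner, fell from 10.8 and 11.1 CPM to 7.77 and 6.71 CPM (log2 fold change -0.60, SE 0.11, adjusted p 0.0189). Only Cyp26b1 was called without Fat 2, and 0 of the 3 without a mean-variance trend. Dhrs3 also lost its call without Con 1 (adjusted p 0.105 in limma) and without Fat 1 (adjusted p 0.0555).

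Of 25 other nuclear receptor genes, 12 were tested. limma called 2 higher and 1 lower, beside 3.99% and 5.0% of all tested genes, edgeR 2 and 1, and DESeq2 2 and 0. Nr4a1, an immediate-early orphan receptor gene, rose from 2.59 and 3.49 CPM in Con to 5.41 and 7.83 CPM in Fat (log2 fold change 1.09, SE 0.21, adjusted p 0.0234 in limma). Nr1d1, the gene of the clock repressor REV-ERBα, rose from 5.31 and 5.78 CPM to 10.0 and 9.56 CPM (log2 fold change 0.81, SE 0.11, adjusted p 0.00687). Esr1, the gene of estrogen receptor α, fell from 3.18 and 2.83 CPM to 1.90 and 1.44 CPM (log2 fold change -0.82, SE 0.19, adjusted p 0.0427). Without Con 1 or without Fat 2 only Nr1d1 was called, and 0 of the 3 without a mean-variance trend. Esr1 also lost its call with DESeq2, with TPM values, without the filter and without Con 2, and held it in 5 of 12 alternatives.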
